A study of Mus musculus with 4 samples.

Results

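Granzymes and mast cell proteases are the serine proteases of immune cell granules, and 5 of their genes (Gzmd, Gzme, Gzmc, Mcpt8 and Cma1) were followed in cultured mouse mammary fibroblasts with and without Ets2. They were taken from 12394 genes on the array and selected on their differences between Ets2-null and Ets2-present fibroblasts in these arrays, so those differences are described here without a test. All probe sets that the platform annotation assigns to 1 of these genes and to no other were used. There were 6 such probe sets among 22690 in the table, with a pair for Gzmd and 1 for each of the other genes. One further probe set that names a member together with a second gene was left out.

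The 4 arrays measured RNA of primary fibroblasts grown from the mammary glands of FVB/N mice at 9 weeks of age, with 1 array per genotype. The PyMT Ets2-null fibroblasts came from PyMT;Fsp-cre;Ets2db/loxP mice and the PyMT Ets2-present fibroblasts from PyMT;Ets2db/loxP mice, in which the polyoma middle T oncogene is expressed in the mammary epithelium. The normal Ets2-null fibroblasts came from Fsp-cre;Ets2db/loxP mice and the normal Ets2-present fibroblasts from Ets2db/loxP mice, which have no oncogene. All 4 genotypes carry a conventional knockout allele of Ets2 (db) and a conditional allele (loxP), so that Ets2-present cells have a single working copy. Fsp-cre expresses Cre from the promoter of fibroblast-specific protein 1 and is present in both Ets2-null genotypes and in neither Ets2-present genotype, so an effect of Cre and an effect of Ets2 loss cannot be told apart. With 1 array per genotype there is no replicate check within these arrays, and no p-value is given for any difference between arrays.

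Granzymes are stored in the granules of cytotoxic T cells and natural killer (NK) cells and are released towards a target cell together with perforin, which opens its membrane. Mast cell proteases are stored in the same way by mast cells and, for Mcpt8, by basophils, and are released when these cells are activated. Both families are made as inactive precursors that the dipeptidyl peptidase cathepsin C (Ctsc) trims to the active form. They are held in the granule by the proteoglycan serglycin (Srgn), and are blocked outside it by serpins. In the mouse, many of these genes lie side by side on chromosome 14.

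Gzmd encodes granzyme D, a granzyme found in rodents. Its first probe set (suffix _x_at) had a log2 level of 4.64 in PyMT Ets2-null fibroblasts, against 9.08 in PyMT Ets2-present fibroblasts. In fibroblasts of mice without the oncogene it was 6.64 in normal Ets2-null and 6.89 in normal Ets2-present cells. The PyMT Ets2-present array was thus the highest and the PyMT Ets2-null array the lowest, with both normal arrays close to each other between them. Gzmd was 21.7-fold lower in PyMT Ets2-null than in PyMT Ets2-present fibroblasts, and 1.19-fold lower in normal Ets2-null than in normal Ets2-present fibroblasts. The second probe set (suffix _at) stood at 4.47, 8.84, 6.24 and 6.88 in the same order of genotypes. By this probe set Gzmd was 20.7-fold lower without Ets2 in PyMT fibroblasts and 1.555-fold lower in normal fibroblasts. The first probe set exceeded the second by 0.02 to 0.41 on the log2 scale, and both put the arrays in the same order.

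Gzme encodes granzyme E, the nearest neighbour of Gzmd on the chromosome. Its probe set (suffix _x_at) had a log2 level of 7.26 in PyMT Ets2-null and 10.49 in PyMT Ets2-present fibroblasts. The levels without the oncogene were 7.96 in normal Ets2-null and 8.54 in normal Ets2-present fibroblasts. The order of the arrays was that of Gzmd, and all 4 values lay well over the filter level of 4.63, the 40th percentile of the whole table, which served as the limit for weak signals. Gzme was 9.35-fold lower in PyMT Ets2-null fibroblasts and 1.49-fold lower in normal Ets2-null fibroblasts than in their Ets2-present counterparts. The suffix _x_at marks a probe set with probes that can also bind transcripts of related genes. Signal of Gzmd and Gzme may therefore be partly shared, and the probe set of Gzmd without this suffix had a log2 Ets2 difference of -4.37 in PyMT fibroblasts.

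Mcpt8 encodes mouse mast cell protease 8, a granule protease known as a marker of basophils. Its log2 level was 4.49 in PyMT Ets2-null and 8.64 in PyMT Ets2-present fibroblasts. It was 6.09 in normal Ets2-null and 7.27 in normal Ets2-present fibroblasts. The array order was again the same, with a wider gap between the normal arrays than for Gzmd. Mcpt8 was 17.7-fold lower in PyMT Ets2-null fibroblasts and 2.26-fold lower in normal Ets2-null fibroblasts than with Ets2. The PyMT Ets2-null value lay just under the filter level, as did the second probe set of Gzmd, while the first probe set of Gzmd and the highest value of Cma1 lay just over it.

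Gzmc encodes granzyme C, a granzyme of activated mouse lymphocytes. Its log2 level was 3.69 in PyMT Ets2-null and 5.63 in PyMT Ets2-present fibroblasts, and 4.28 in normal Ets2-null and 5.45 in normal Ets2-present fibroblasts. Both Ets2-null arrays were under the filter level and both Ets2-present arrays over it, and the Ets2-present arrays differed from each other by 0.19. Gzmc was 3.83-fold lower in PyMT Ets2-null and 2.25-fold lower in normal Ets2-null fibroblasts. When values under the filter level were raised to it, these became 1.999-fold and 1.76-fold.

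Cma1 encodes mast cell chymase 1, the mouse mast cell protease 5. Its log2 level was 2.97 in PyMT Ets2-null, 3.45 in PyMT Ets2-present, 3.34 in normal Ets2-null and 4.67 in normal Ets2-present fibroblasts. The highest array was therefore normal Ets2-present, unlike the PyMT Ets2-present array for the granzymes and Mcpt8, and the other 3 values were under the filter level. With low values raised, its log2 Ets2 difference in normal fibroblasts was -0.04 in place of -1.33, and that in PyMT fibroblasts was 0 in place of -0.48.

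**Figure D1:**
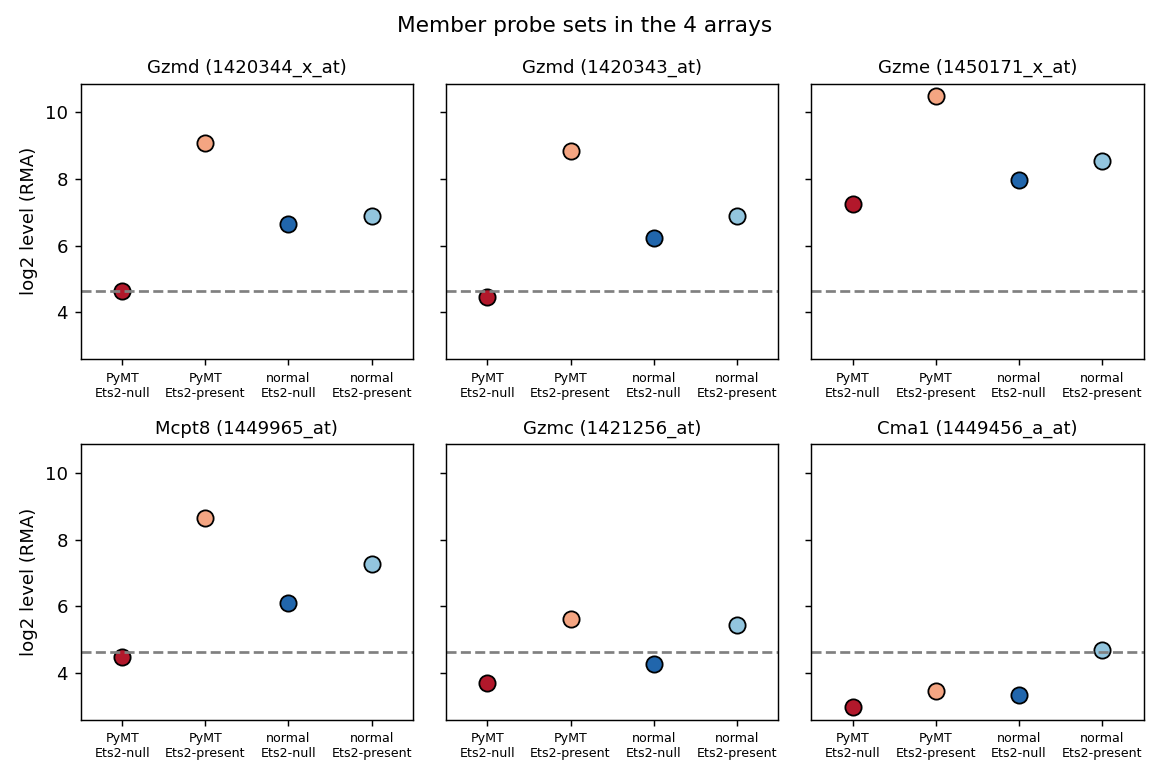
Log2 level (RMA, vertical) of each of the 6 probe sets in the 4 arrays (horizontal), 1 point per array, with the dashed line at the filter level of 4.63. For Gzmd, Gzme, Mcpt8 and Gzmc the PyMT Ets2-present array is the highest and the PyMT Ets2-null array the lowest, while Cma1 is over the line in the normal Ets2-present array alone.

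Across the 24 values of the 6 probe sets, 7 lay under the filter level. These were 4 of 6 in PyMT Ets2-null, 1 of 6 in PyMT Ets2-present, 2 of 6 in normal Ets2-null and 0 of 6 in normal Ets2-present fibroblasts. A gene was kept for counting when its highest array reached the filter level. All 5 genes were kept among 8687, but Gzmc passed through its Ets2-present arrays and Cma1 through 1 array. Genes that pass in this way had to differ between arrays.

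The promoters of the 3 granzyme genes and of Mcpt8 are shown because these genes had the same order of arrays and because Ets2 is a transcription factor that binds DNA around a GGAA core. Each window runs from 250 bases before to 50 bases after the gene start (RefSeq, build GRCm38.p6, minus strand, 5′ to 3′), with GGAA, or TTCC where the core is on the other strand, in capitals. The windows are chr14:56132544-56132843 for Gzmd, chr14:56120576-56120875 for Gzme, chr14:56234608-56234907 for Gzmc and chr14:56085148-56085447 for Mcpt8.
Gzmd: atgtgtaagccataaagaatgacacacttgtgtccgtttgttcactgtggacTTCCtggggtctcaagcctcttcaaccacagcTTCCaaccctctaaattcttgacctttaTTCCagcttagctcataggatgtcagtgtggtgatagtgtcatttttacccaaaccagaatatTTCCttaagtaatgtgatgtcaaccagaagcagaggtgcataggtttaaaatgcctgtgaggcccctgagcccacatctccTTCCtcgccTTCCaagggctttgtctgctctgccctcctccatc
Gzme: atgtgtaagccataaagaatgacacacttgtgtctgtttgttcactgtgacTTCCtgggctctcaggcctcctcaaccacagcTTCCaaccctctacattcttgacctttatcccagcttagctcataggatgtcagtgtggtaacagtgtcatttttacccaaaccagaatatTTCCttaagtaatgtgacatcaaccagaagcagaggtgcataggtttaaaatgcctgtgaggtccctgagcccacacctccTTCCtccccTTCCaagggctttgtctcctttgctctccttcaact
Gzmc: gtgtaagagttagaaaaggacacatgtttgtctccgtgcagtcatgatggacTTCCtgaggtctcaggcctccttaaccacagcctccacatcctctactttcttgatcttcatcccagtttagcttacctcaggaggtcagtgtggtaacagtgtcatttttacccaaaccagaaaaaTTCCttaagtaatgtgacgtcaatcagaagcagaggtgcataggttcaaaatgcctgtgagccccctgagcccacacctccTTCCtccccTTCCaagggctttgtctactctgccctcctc
Mcpt8: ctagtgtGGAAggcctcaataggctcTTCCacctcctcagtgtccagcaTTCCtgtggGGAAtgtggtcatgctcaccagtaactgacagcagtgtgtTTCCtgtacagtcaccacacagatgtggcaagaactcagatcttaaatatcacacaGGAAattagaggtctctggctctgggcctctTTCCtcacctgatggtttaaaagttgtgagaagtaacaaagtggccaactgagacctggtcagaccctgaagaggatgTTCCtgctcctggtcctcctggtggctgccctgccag

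The granzyme windows are near copies of each other. In a global alignment, 93.7% of the 300 bases were identical between Gzmd and Gzme, 85.3% between Gzmd and Gzmc and 86.0% between Gzme and Gzmc. Gzmd and Mcpt8 shared 61.0% and Gzmd and the promoter of Cma1 61.7%, close to the 58.0% between Gzmd and Gzmb, a cluster gene whose level was under the filter level in all 4 arrays. The longest stretch common to Gzmd and Gzme and the longest common to all 3 granzymes both lie upstream of the start.
Gzmd and Gzme: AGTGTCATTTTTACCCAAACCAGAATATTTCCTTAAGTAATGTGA
Gzmc, Gzmd and Gzme: AGTGTCATTTTTACCCAAACCAGAA
The first of these, 45 bases long, was present in 2 of 32851 mouse promoters and the second, 25 bases long, in 3, in each case those of the genes named. Close copies also occur where the array gave a weak signal, since the promoters of Gzmg and Gzmf were 85.7% and 83.3% identical to that of Gzmd.

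The GGAA core was present 6 times in the window of Gzmd, 5 times in Gzme, 4 times in Gzmc, 8 times in Mcpt8 and 4 times in Cma1, counting both strands. It occurs in 96.0% of all promoters of this length, with a median of 3 matches. The longer form CCGGAA was present in none of the 5 windows and in 14.9% of all promoters, TGANTCA, the site of AP-1, in none and in 7.81%, and TATAAA in none and in 13.6%. TGTGGT, the core read by Runx factors, was present in all 5 windows, at 2 places in each except that of Cma1, and in 16.8% of all promoters. The granzyme windows are near copies and are not separate cases. These are matches of letters and not binding sites. The forward primer used by the study for RT-PCR of Mcpt8 (tgttcctgctcctggtcct) lies in the Mcpt8 window and begins 12 bases into the transcribed part. The study reported that RT-PCR on independent RNA of tumor fibroblasts verified most of its array differences. Its text does not state the outcome for Mcpt8 alone.

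In PyMT fibroblasts, 4 of the 5 genes were at least 2-fold lower without Ets2, where 7.77% of the 8687 kept genes were, and 3 were at least 4-fold lower, where 0.944% were. With low values raised, 3 were at least 2-fold lower, since Gzmc came to 1.999-fold. The median of the 5 was -3.23 on the log2 scale and that of all kept genes 0.02. In normal fibroblasts 3 of the 5 (Cma1, Mcpt8 and Gzmc) were at least 2-fold lower without Ets2, against 2.41% of the kept genes, and 0 were at least 4-fold lower, against 0.0806%. With low values raised or with the filter at the 60th percentile, 1 gene, Mcpt8, was left at 2-fold, since Cma1 and Gzmc were kept through their Ets2-present arrays. The median of the 5 in normal fibroblasts was -1.17 and that of all kept genes -0.02. Since these comparisons served to choose the genes, the counts are a description.

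As a stand-in for measurement spread, the differences given by the 2 brightest probe sets of the same gene were compared in 3378 genes. They disagreed with an SD of 0.69 for the loss of Ets2 in PyMT fibroblasts and 0.48 in normal fibroblasts. The Ets2 differences of Gzmd, Gzme, Mcpt8 and Gzmc in PyMT fibroblasts exceeded this SD and that of Cma1 did not. In normal fibroblasts Mcpt8, Gzmc, Cma1 and Gzme (-0.58) exceeded it. Gzmd did not by its first probe set (-0.25) but did by its second (-0.64). For Cma1 and Gzmc the normal Ets2-null value was under the filter level. With low values raised, the difference of Cma1 was -0.04 and that of Gzmc -0.81. The genes were selected on these Ets2 differences, so setting them beside the SD is a description and no test. This SD does not cover the spread between mice or between cultures.

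Set against normal fibroblasts, Gzmd, Gzme and Mcpt8 were lower with the oncogene in Ets2-null cells and higher with it in Ets2-present cells. In Ets2-null fibroblasts the log2 differences, PyMT minus normal, were -2.001 for Gzmd, -1.60 for Mcpt8, -0.70 for Gzme, -0.58 for Gzmc and -0.38 for Cma1. Those of Gzmd and Mcpt8 exceeded the probe set SD of 0.70 for this comparison, that of Gzme was about equal to it, and those of Gzmc and Cma1 were within it. Both arrays were under the filter level for Gzmc and Cma1, and with low values raised their differences were 0. Of the 5 genes, 2 were at least 2-fold lower, where 11.2% of the kept genes were. In Ets2-present fibroblasts Gzmd (4.55-fold), Gzme (3.85-fold) and Mcpt8 (2.58-fold) were higher with PyMT, 3 of 5 at 2-fold where 5.42% of the kept genes were. Gzmc differed by 0.19 on the log2 scale, less than the probe set SD of 0.51, and Cma1 was 2.33-fold lower. Its PyMT Ets2-present value was under the filter level, and with low values raised this was 1.03-fold. Each of these differences shares an array with an Ets2 difference above, so they are not independent of it. The Ets2 difference in PyMT fibroblasts minus the one in normal fibroblasts was -4.19 for Gzmd, -2.97 for Mcpt8, -2.65 for Gzme, -0.77 for Gzmc and 0.85 for Cma1, with a probe set SD of 0.86.

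**Figure D2:**
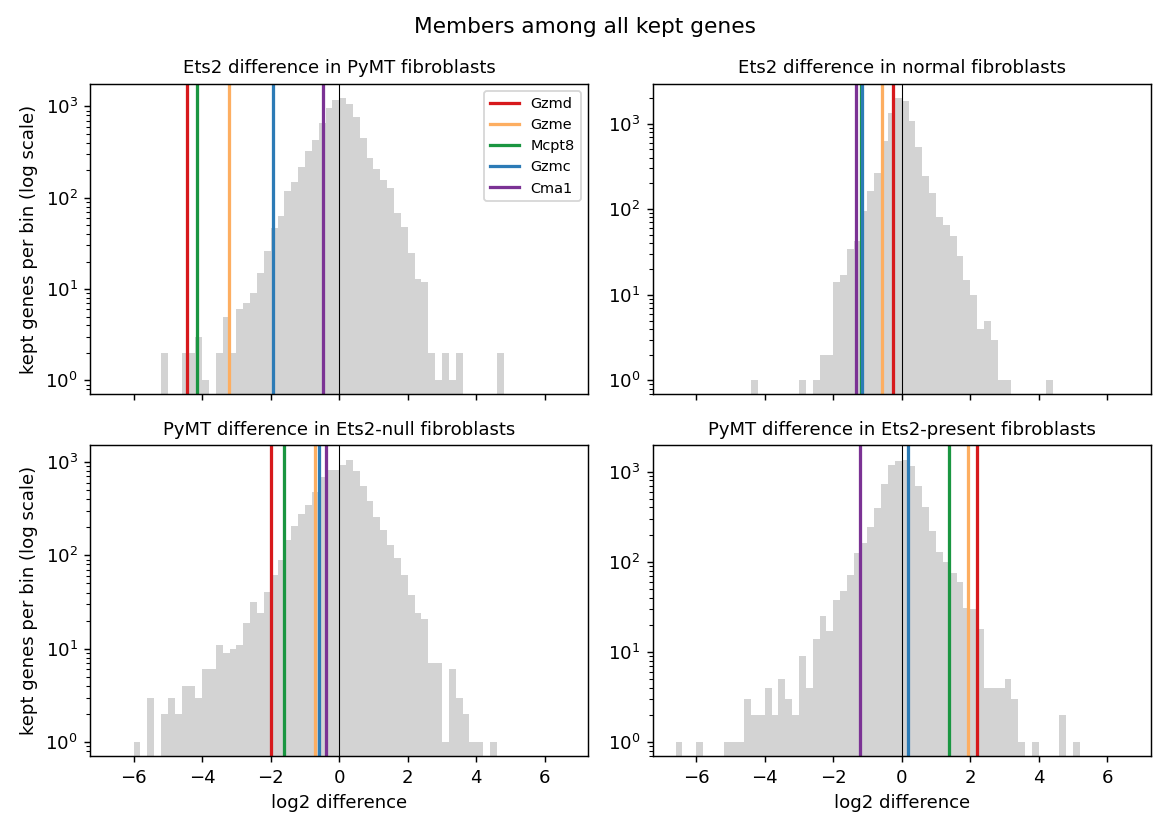
Number of kept genes (vertical, log scale) by log2 difference (horizontal) in 4 comparisons, Ets2-null minus Ets2-present in the upper panels and PyMT minus normal in the lower panels, with coloured lines for the 5 genes. Gzmd, Mcpt8 and Gzme lie between -4.44 and -3.23 in PyMT fibroblasts, and on opposite sides of 0 in the lower panels.

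Along chromosome 14 the 15 protein-coding genes from Cma1 to Gzmb are, in the RefSeq order, Cma1, Cma2, Mcpt1, Mcpt2, Mcpt9, Mcpt4, Mcpt8, Ctsg, Gzme, Gzmd, Gzmg, Gzmn, Gzmf, Gzmc and Gzmb. Of these, 13 had a probe set of their own. The 5 genes are therefore not 1 unbroken block: Gzme and Gzmd adjoin, Ctsg, encoding the neutrophil protease cathepsin G, separates them from Mcpt8, and Gzmg, Gzmn and Gzmf stand between Gzmd and Gzmc. Among the 8 other measured genes, 7 were under the filter level in all 4 arrays, so that no difference can be read for Gzmb, Gzmf, Gzmg, Gzmn, Ctsg, Mcpt2 or Mcpt4. Mcpt1, a chymase of mucosal mast cells, was the exception. Its log2 level was 3.76 in PyMT Ets2-null and 5.30 in PyMT Ets2-present, and 4.76 in normal Ets2-null and 5.69 in normal Ets2-present fibroblasts. Mcpt1 was thus 2.91-fold lower without Ets2 in PyMT fibroblasts (1.59-fold with low values raised) and 1.91-fold lower in normal fibroblasts.

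**Figure D3:**
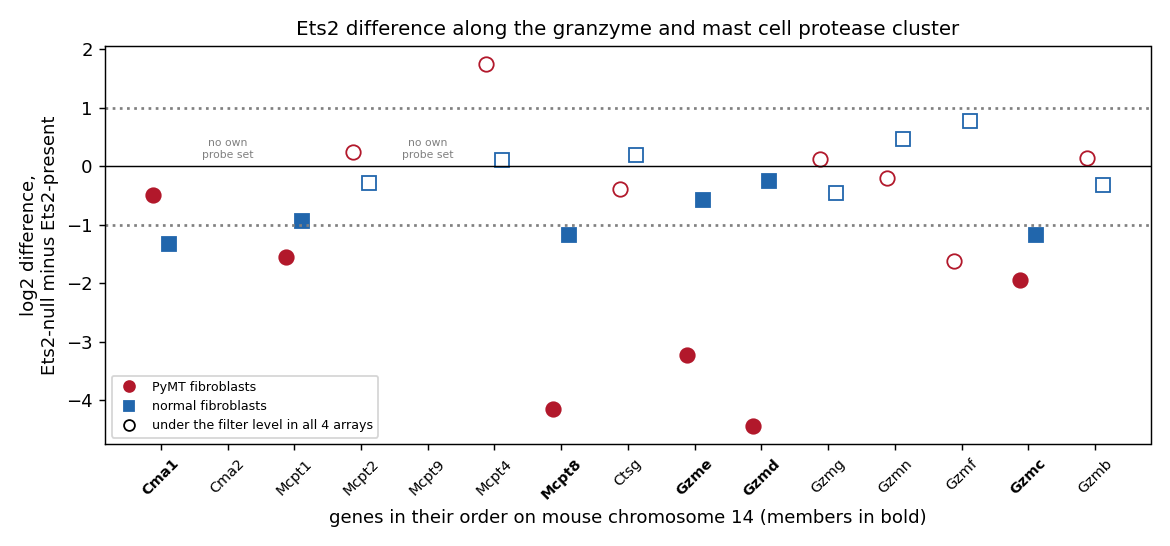
Log2 difference, Ets2-null minus Ets2-present (vertical), for the genes of the cluster in chromosomal order (horizontal), in PyMT and in normal fibroblasts, 1 array per genotype. Open symbols are genes under the filter level in all 4 arrays, and the filled symbols lie below 0 in both kinds of fibroblast, from -4.44 for Gzmd to -0.25 for the same gene. Cma1 is filled through 1 array, and with low values raised its differences were 0 in PyMT and -0.04 in normal fibroblasts.

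Granzymes encoded elsewhere gave little signal. Gzma, the tryptase-like granzyme A, and Gzmm, granzyme M, were under the filter level in all 4 arrays. Gzmk, granzyme K, reached it in 1 array, with a log2 level of 4.62 in PyMT Ets2-null, 3.90 in PyMT Ets2-present, 3.48 in normal Ets2-null and 5.15 in normal Ets2-present fibroblasts. Both PyMT values were under the filter level, so no Ets2 difference can be read there, and that in normal fibroblasts was -0.52 with low values raised. The brighter probe set of perforin, Prf1, had 5.46 in PyMT Ets2-null and 5.696 in PyMT Ets2-present fibroblasts, and 5.002 and 5.05 in their normal counterparts. Its Ets2 differences of -0.24 and -0.05 were within the probe set SD. The second probe set had Ets2 differences of 1.08 and -0.88, which were 0 and -0.10 with low values raised.

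Of 7 kept serpins on the list of granzyme and serine protease inhibitors, 5 were at least 2-fold higher without Ets2 in PyMT fibroblasts, where 7.64% of the kept genes were, and 3 in normal fibroblasts, where 3.02% were. One of the 3, Serpinb1b, had a normal Ets2-present value under the filter level. Its log2 difference was 1.67, and 0.845 with low values raised. All but Serpina3n are genes of the Serpinb family. The list was drawn up with earlier results of these data known, so the counts are a description. Serpinb9, the intracellular inhibitor of granzyme B, had a log2 level of 9.41 in PyMT Ets2-null and 7.66 in PyMT Ets2-present, and 8.69 in normal Ets2-null and 7.81 in normal Ets2-present fibroblasts. Serpina3n, a secreted serpin that binds granzyme B in the mouse, stood at 7.89 and 5.68 in PyMT Ets2-null and Ets2-present cells, and at 9.70 and 9.03 in normal Ets2-null and Ets2-present cells. Both were higher without Ets2 in PyMT and in normal fibroblasts, while Serpinb9b (-0.78) and Serpinb6a (-0.44), of the same list, had negative log2 Ets2 differences in normal fibroblasts. Serpinb6b (3.22) and Serpinb1a (3.14) had the larger log2 differences in PyMT fibroblasts, and all of these values come from the same arrays as those of the proteases.

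Genes that mature and store granule proteases were counted in the same way, and the list is too short to set it apart from all kept genes. Of 9 kept genes, 1 was lower and 1 higher by at least 2-fold without Ets2 in PyMT fibroblasts, where 7.77% and 7.64% of all kept genes were, and 0 in normal fibroblasts, where 2.41% and 3.02% were. The medians were 0.08 and -0.11. The lower gene was Srgn, the proteoglycan of the granule, at 4.70 in PyMT Ets2-null and 6.28 in PyMT Ets2-present fibroblasts, and under the filter level in both normal arrays. The higher gene was Hdc, which makes histamine, at 5.12 in PyMT Ets2-null and 3.91 in PyMT Ets2-present fibroblasts, a log2 difference of 0.49 with low values raised. Ctsc, cathepsin C, stood at 9.24 in PyMT Ets2-null and 9.32 in PyMT Ets2-present, and at 10.18 in normal Ets2-null and 10.75 in normal Ets2-present fibroblasts.

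The proteases are known from immune cells, and in a culture fewer cells of a type and less RNA per cell cannot be told apart. Markers of these cells were therefore read on the same arrays. Of the receptors and granule enzymes that define mast cells, Kit, Fcer1a, Ms4a2, Cpa3, Tpsab1, Tpsb2 and Tpsg1, all 7 were under the filter level in every array, between 2.45 and 4.47. On the whole mast cell list without the members, 12 of 16 genes were under it in each array, and the log2 of the summed level ran from 10.63 to 10.77 in PyMT and from 10.98 to 11.25 in normal fibroblasts. Mitf and Gata2 made up most of this sum, so it does not measure the share of mast cells. The genes over the filter level in all arrays were Mitf and Gata2, transcription factors that other cells use too, and Fcer1g, the gamma chain of the IgE receptor and of other receptors of leukocytes. Fcer1g stood at 5.90 in PyMT Ets2-null and 5.85 in PyMT Ets2-present, and at 4.99 in normal Ets2-null and 5.02 in normal Ets2-present fibroblasts. On the basophil list without Mcpt8, 6 of 8 genes were under the filter level in each array. Gata2 and Il3ra, the alpha chain of the interleukin-3 receptor, were over it, and Il3ra stood at 5.79 in PyMT Ets2-null and 6.63 in PyMT Ets2-present, and at 6.80 in normal Ets2-null and 6.10 in normal Ets2-present fibroblasts.

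Most receptor genes of T and NK cells were under the filter level too. Cd3d, Cd3e, Cd3g, Cd8a, Cd8b1, Ncr1, Klrd1 and Nkg7 lay between 2.40 and 3.86 in all arrays. Cd247, the zeta chain of the T cell receptor, reached the filter level in 1 array, with 4.96 in PyMT Ets2-null and 3.97 in PyMT Ets2-present fibroblasts, and 3.66 in normal Ets2-null and 3.74 in normal Ets2-present fibroblasts. On the list of cytotoxic lymphocytes, 22 of 24 genes were under the filter level in each array, with a log2 summed level of 8.28 in both PyMT arrays and from 8.09 to 8.11 in the normal arrays. Ccl5, a chemokine on this list, stood at 3.76 in PyMT Ets2-null and 5.78 in PyMT Ets2-present fibroblasts, and at 5.77 in normal Ets2-null and 4.56 in normal Ets2-present fibroblasts. Its PyMT Ets2-null and normal Ets2-present values were under the filter level. With low values raised, its log2 Ets2 difference was -1.15 in place of -2.02 in PyMT fibroblasts, and 1.13 in place of 1.20 in normal fibroblasts.

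Some myeloid genes differed in the direction of the proteases in PyMT fibroblasts. Lcp1, an actin-bundling protein of leukocytes that is also made by other cells, had a log2 level of 4.88 in PyMT Ets2-null and 8.04 in PyMT Ets2-present fibroblasts, and 6.24 and 5.96 in their normal counterparts. Csf1r, the macrophage growth factor receptor, stood at 6.19 in PyMT Ets2-null and 8.12 in PyMT Ets2-present fibroblasts, and at 6.54 and 6.95 in their normal counterparts. Adgre1, a surface antigen of macrophages, stood at 4.52 and 6.17, and at 4.27 and 4.45 in the normal counterparts. Lyz2, on the same list, stood at 9.09 in PyMT Ets2-null and 9.13 in PyMT Ets2-present fibroblasts, and at 7.11 and 7.39 in their normal counterparts. On the pan-leukocyte and myeloid list, 4 of 12 kept genes were lower and 1 was higher by at least 2-fold in PyMT Ets2-null fibroblasts, beside 7.77% and 7.64% of all kept genes, with a median of -0.12. The other lower gene, Cd68, was under the filter level in both PyMT arrays (3.44 and 4.48), and its difference was 0 with low values raised. The higher gene, Ptpn6, had a log2 difference of 1.17, and 0.85 with low values raised. The log2 of its summed level was 12.36 in PyMT Ets2-null and 12.07 in PyMT Ets2-present fibroblasts, and 11.54 in normal Ets2-null and 11.23 in normal Ets2-present fibroblasts. Cd53, a leukocyte membrane protein and the brightest gene of the list, stood at 12.06 in PyMT Ets2-null and 11.46 in PyMT Ets2-present fibroblasts, and Ptprc, the common leukocyte antigen and a defining marker, at 4.92 and 4.33. Cd53 made up most of the summed level in each array, so the sum does not measure the share of leukocytes. Of the 18 genes, 6 were under the filter level in all arrays, among them Spi1, Itgam and Itgax. The part of myeloid cells in the protease levels was not tested. Fibroblast markers were over the filter level in all arrays for 17 of 17 genes, with medians of 11.59, 11.23, 12.03 and 11.86 in PyMT Ets2-null, PyMT Ets2-present, normal Ets2-null and normal Ets2-present fibroblasts. In PyMT fibroblasts, 2 of these 17 (Fap and Thy1) were at least 2-fold lower without Ets2 and 1 (Pdgfra) was higher. The shares of all kept genes were 7.77% and 7.64%, and the median log2 difference of the 17 was 0.26. Fap, a membrane-bound serine protease of activated fibroblasts, stood at 5.30 in PyMT Ets2-null and 7.67 in PyMT Ets2-present fibroblasts, while Pdgfra stood at 11.59 and 10.18.

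**Figure D4:**
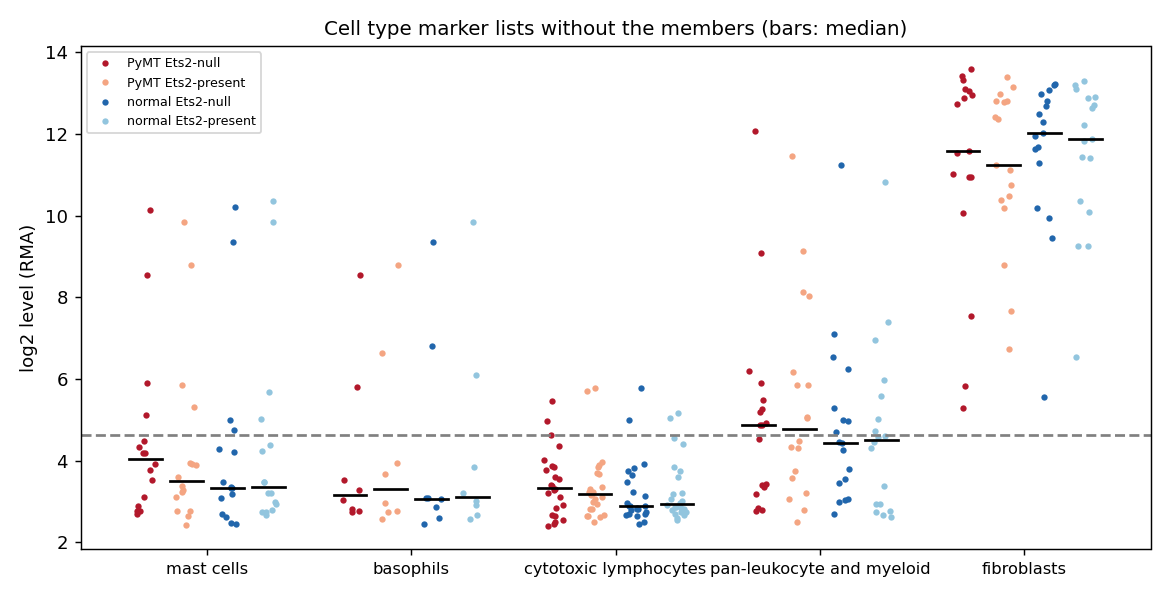
Log2 level (RMA, vertical) of each measured marker gene by cell type list (horizontal) and array (colour), members left out, with bars for the median and the dashed line at 4.63. Most mast cell, basophil and cytotoxic lymphocyte markers lie under the line in all arrays, and all fibroblast markers lie over it.

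The kept genes whose 4-array profile was most like the mean profile of the 5 genes were Eva1a, Tgfb1, Armcx5, Dpp4 and Prkar2a, with root mean square distances of 0.15 to 0.27 on the log2 scale after centring each gene over the 4 arrays. Dpp4, a membrane-bound serine peptidase, stood at 3.12 in PyMT Ets2-null and 6.08 in PyMT Ets2-present, and at 3.94 in normal Ets2-null and 5.42 in normal Ets2-present fibroblasts. The gene nearest to Gzmd was Mmp9, a gelatinase of the extracellular matrix (distance 0.29), that nearest to Mcpt8 was Akr1c18, a steroid-metabolizing enzyme (0.16), and that nearest to Gzme was Sp7, a transcription factor of bone formation (0.21). Among the members, Gzmd and Mcpt8 lay 0.36 apart, Gzmd and Gzme 0.52, and Gzmd and Cma1 1.52. The genes named here as nearest were all under the filter level in PyMT Ets2-null fibroblasts, for example Mmp9 at 3.60 and Akr1c18 at 3.07. They were kept through other arrays, so their profiles rest in part on weak values. With 4 arrays many genes can share a profile, and nothing further is read from it.

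Ets2 itself had a log2 level of 11.22 in PyMT Ets2-null and 11.21 in PyMT Ets2-present, and of 11.89 in normal Ets2-null and 11.86 in normal Ets2-present fibroblasts. Whether its probe set lies in the deleted exons is not known, so it does not check the labels. For PyMT fibroblasts with Fsp-cre, the study reported loss of ETS2 protein on Western blots and of phosphorylated ETS2 in stained cultures. Correlations between arrays over all probe sets ran from 0.959 to 0.985, and those of the PyMT Ets2-null array, which gave the lowest value of every member, were 0.959 to 0.969.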

How the data were processed

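RNA of 4 fibroblast cultures was hybridised to Affymetrix mouse arrays, 1 per genotype. The deposited values are RMA levels on the log2 scale, made by the authors. RMA corrects the background, normalizes between arrays and summarizes probes. The version was not given in the sources used here. Scanner files were not used here, so there are no detection calls, and levels under 4.63, the 40th percentile of the table, were treated as weak. RMA can compress differences of weak signals, and its normalization assumes that most genes are alike between arrays.

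The platform annotation gave 1 gene for 20393 of 22690 probe sets, several for 691 and none for 1606. All 6 member probe sets matched RefSeq (GRCm38.p6) by Entrez ID. The probe set with the highest mean stood for each gene, which was kept if its highest value reached the filter level. Differences were taken between single arrays and set beside all kept genes, with no p-value. Named were the 5 members, the cluster genes, other granzymes and perforin, and the genes of nearest profile. Of the list genes over the filter level or past 2-fold, only some were named, and the rest are in the counts. The members and lists were chosen with earlier results of these data known. The counting steps were tested on simulated data. Alternatives were other filters, raised low values, other choices of probe set, cyclic loess (limma 3.58.1, R 4.3.3), median centring and centring on fibroblast markers. Protein sequences were not analysed here. Python 3.11.15 and Biopython 1.88 were used for the rest.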

Additional observations from a re-analysis of the deposited data

Results flagged for a closer look

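For Gzmd, Gzme and Mcpt8 the PyMT difference had one sign in Ets2-null and the other in Ets2-present fibroblasts. The log2 values were -2.001 and 2.19 for Gzmd, -0.70 and 1.95 for Gzme and -1.60 and 1.37 for Mcpt8. Those of Gzmc, -0.58 and 0.19, also differed in sign, but both were within the probe set SD of 0.70 and 0.51, and the first lies between 2 values under the filter level and is 0 with low values raised. For Gzme the Ets2-null value was about equal to the SD of 0.70, and it was -0.27 with centring on fibroblast markers. These differences of direction rest on 1 array per genotype and were not tested.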

How the results depend on the processing

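The 25 member differences were recomputed under 8 alternatives. Of 180 values, 0 changed sign, 3 came to exactly 0 when low values were raised, and 7 moved by more than the probe set SD, while 20 could not be given because the gene was filtered out or had no probe set of the kind. With low values raised, 1 member was at least 2-fold lower without Ets2 in normal fibroblasts (median -0.58). With the filter at the 60th percentile 3 members were left, of which 1 was 2-fold lower there (median -0.58), and their medians were -4.15 for the Ets2 difference in PyMT fibroblasts while those of the PyMT difference were -1.60 in Ets2-null and 1.95 in Ets2-present cells. These shifts follow from the members left in or floored. Without _x_at and _s_at probe sets, which removes Gzme, the median PyMT difference in Ets2-present fibroblasts was 0.78. Centring on fibroblast markers shifted the median of all genes by -0.37 for the Ets2 difference in PyMT fibroblasts and by 0.65 for the PyMT difference in Ets2-present fibroblasts, and the member medians became -4.05 and 2.29 over the 4 members left. Median centring shifted the median of all genes by 0.11 for the Ets2 difference in PyMT fibroblasts. Member values under the filter level numbered 14 of 24 at the 60th percentile. The probe set SD was then 0.43 and 0.32 for the Ets2 difference in PyMT and in normal fibroblasts, 0.46 and 0.33 for the PyMT difference in Ets2-null and Ets2-present cells, and 0.57 for the subtraction. With no filter it was 0.64 for the PyMT difference in Ets2-present fibroblasts. No paired analysis was possible because each group has 1 array. The number of arrays limits the precision of every value.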
